A study of Mus musculus with 4 samples.

Results

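Stretches of the mouse genome, 4 in all and each 10 Mb long, were followed in RAW264.7 cells, an established mouse macrophage-like line. They lie on chromosome 1 from 140 to 150 Mb, chromosome 3 from 10 to 20 Mb, chromosome 4 from 20 to 30 Mb and chromosome 9 from 70 to 80 Mb in the mm9 coordinates of the array, and they are called below the chromosome 1, 3, 4 and 9 windows. Their members are the 470 probes of 55681 non-control probes on the array whose lower coordinate falls inside a window, 72, 117, 61 and 220 of them in that order, and these probes stood for 303 of 36095 genes or names (46, 68, 40 and 149). The windows were chosen by these same arrays, for genes that read lower on the arrays labelled knockdown than on those labelled scramble, so the size and the direction of that difference are given as a description, with no test, and nothing rests on them.

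Gene expression was read with Agilent 60-base probes on 4 arrays, 1 for each of 4 groups. The cells carried a stably integrated pcDNA6.2-GW/EmGFP-miR vector, which makes an artificial microRNA, and were selected with blasticidin as bulk cultures, so every group shares the vector backbone and the drug selection. The microRNA was a scramble control or one aimed at the long non-coding RNA Linc-AAM. Each line was kept for 4 h in DMEM medium alone or with 50 µg/mL AEPS, a polysaccharide of the plant Actinidia eriantha, and nothing in the labels says that a culture was repeated. The groups are therefore the array labelled scramble in DMEM, the array labelled knockdown in DMEM, the array labelled scramble under AEPS and the array labelled knockdown under AEPS. A level below is log2 of the processed intensity minus the 75th percentile of its array, so a level of 0 is the signal that 25% of spots exceed, and a line difference is the level on the array labelled knockdown minus that on the array labelled scramble in the same medium, so that -1 is a 2-fold lower value. One probe, the brightest, stands for each gene, and levels are not compared between genes, because probes differ in how well they bind.

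A limit touches every line difference. The deposited value table and the scanner files disagree on which line is which: over 55681 probes each column of the table ranked the probes like the scanner array of the other line in the same medium (Spearman rho 1, against 0.969 with its own array). Lines are named here as on the scanner files, and under the labels of the value table every line difference has the opposite sign. With 1 array a group, no line difference has a replicate check, and fewer cells of a type and less RNA per cell cannot be told apart. Both arrays labelled knockdown were dimmer before scaling. Probes above background made up 58.0% of spots on the array labelled scramble and 53.4% on that labelled knockdown in DMEM, and 56.1% and 54.8% under AEPS. In the same order the 75th percentile of the processed intensity was 588 and 439, then 510 and 448. No spot was saturated (0 on each array), and the spots of a probe printed 10 times on one array had an SD of 0.049 to 0.076 on the log2 scale (median over 399 probes of any brightness). All 8 macrophage markers looked at (Csf1r, Adgre1, Cd68, Itgam, Fcgr1, Lyz2, Spi1 and Cd14) were above background on all 4 arrays with a summed log2 level of 9.47 to 9.65, the B cell markers Ms4a1 and Pax5 were above background on 0 arrays, and Cd2, Pdgfra, Cdh1 and Epcam, of T cells, fibroblasts and epithelium, were likewise never above it. Of 3 T cell, 4 fibroblast and 3 epithelial markers, 1, 1 and 0 were above background on all 4 arrays, with summed log2 levels of 0.58 to 1.04, -3.10 to -1.67 and -4.74 to -4.11 over the arrays.

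As background, the windows hold several tandem gene families, which arise when a gene is copied next to itself. RGS proteins switch off G proteins behind chemokine receptors. Fatty acid binding proteins carry lipids inside macrophages and fat cells, carbonic anhydrases convert carbon dioxide and water to bicarbonate and acid, and SIRP-beta receptors on myeloid cells signal through the adaptor DAP12. The chromosome 9 window holds Cgas, the sensor of DNA in the cytosol that starts the STING and interferon pathway, and the alpha-class glutathione transferases. RNA was measured, and DNA was not analysed here.

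Promoter sequences are shown for some of the genes with low line differences, whose base composition differed. They do not compare the windows, because few genes of the chromosome 3 window matched a promoter. From RefSeq on GRCm38.p6, 300 bases (250 before and 50 after the start) are given. They are those of Sirpb1a and Sirpb1b, the genes with the lowest line differences of the chromosome 3 window. The chromosome 1, 4 and 9 windows have 1 gene each, among their 5 lowest with an official-style symbol. The Sirpb1a promoter lies at chr3:15426378-15426677 and that of Sirpb1b at chr3:15575016-15575315, both on the minus strand. That of Uchl5 lies at chr1:143777028-143777327 on the plus strand, that of Manea at chr4:26346603-26346902 on the minus strand and that of Cgas at chr9:78443188-78443487 on the minus strand. Capitals mark a match to GAAA, 2 bases of any kind and GAAA, the core of an interferon-stimulated response element (ISRE), in the first pair, and CCAAT in Manea, searched on both strands.
Sirpb1a: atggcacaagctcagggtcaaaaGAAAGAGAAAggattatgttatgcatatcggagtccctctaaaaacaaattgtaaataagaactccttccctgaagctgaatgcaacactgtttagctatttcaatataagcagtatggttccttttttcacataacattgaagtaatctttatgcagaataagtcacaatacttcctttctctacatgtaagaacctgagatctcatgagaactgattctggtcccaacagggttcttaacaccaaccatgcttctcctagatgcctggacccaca
Sirpb1b: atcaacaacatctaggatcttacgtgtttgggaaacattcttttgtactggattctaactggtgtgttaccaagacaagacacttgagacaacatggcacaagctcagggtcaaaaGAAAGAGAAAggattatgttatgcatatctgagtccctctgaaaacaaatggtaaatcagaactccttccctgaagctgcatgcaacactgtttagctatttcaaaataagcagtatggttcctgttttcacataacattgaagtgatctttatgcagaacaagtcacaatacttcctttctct
Uchl5: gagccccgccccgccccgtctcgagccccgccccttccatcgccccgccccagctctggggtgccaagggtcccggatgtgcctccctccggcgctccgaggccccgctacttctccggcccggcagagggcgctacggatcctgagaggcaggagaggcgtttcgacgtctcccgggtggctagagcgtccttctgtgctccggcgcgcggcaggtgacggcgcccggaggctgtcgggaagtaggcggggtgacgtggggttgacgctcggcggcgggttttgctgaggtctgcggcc
Manea: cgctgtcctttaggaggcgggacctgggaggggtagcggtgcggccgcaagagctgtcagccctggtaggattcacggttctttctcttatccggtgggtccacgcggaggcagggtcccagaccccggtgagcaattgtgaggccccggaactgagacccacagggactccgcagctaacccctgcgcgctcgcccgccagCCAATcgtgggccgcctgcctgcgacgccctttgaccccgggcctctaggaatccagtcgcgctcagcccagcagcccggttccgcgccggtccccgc
Cgas: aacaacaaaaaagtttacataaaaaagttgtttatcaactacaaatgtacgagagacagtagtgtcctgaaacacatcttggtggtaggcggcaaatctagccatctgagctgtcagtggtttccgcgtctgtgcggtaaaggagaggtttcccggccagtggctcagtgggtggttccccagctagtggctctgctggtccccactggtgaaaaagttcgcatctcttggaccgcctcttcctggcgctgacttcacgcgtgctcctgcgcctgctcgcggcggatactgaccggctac
The pair of Sirpb1 sequences match each other at 198 of 207 bases once they are shifted by 93 bases, and both hold the same GAAAGAGAAA. They are poor in G and C (38.7% and 38.0%) with 1 CpG each, while Uchl5 has 73.3% G and C with 36 CpG, Manea 68.7% with 28 and Cgas 53.0% with 16. The sequences of Uchl5 and Cgas held none of the 6 motifs searched. Of the genes with an official-style symbol above background on all 4 arrays, 10 of 12, 3 of 18, 11 of 13 and 37 of 40 matched the table in the chromosome 1, 3, 4 and 9 windows, with 79 promoters in all (the ISRE core in 4 of 79, against 3.44% of 32851 mouse promoters of the same length). The other motifs searched on both strands were GAGGAAGT, bound by PU.1 (7 of 79, against 3.2%), that of NF-kB (GGG, 2 bases of any kind and TTTCC; 0 of 79, against 1.63%), TATAAA (3 of 79, against 13.6%), CCAAT (28 of 79, against 37.4%) and TGANTCA of AP-1 (4 of 79, against 7.81%). A match is a description of letters and not a binding site. The 79 promoters are of genes above background, the 32851 are of all genes, and some genes have several promoters. The median G and C share was 69.7%, 38.7%, 66.0% and 61.7% in the chromosome 1, 3, 4 and 9 windows, against 52.7% over all promoters. The part of expression or base composition in the motif counts was not tested.

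**Figure D1:**
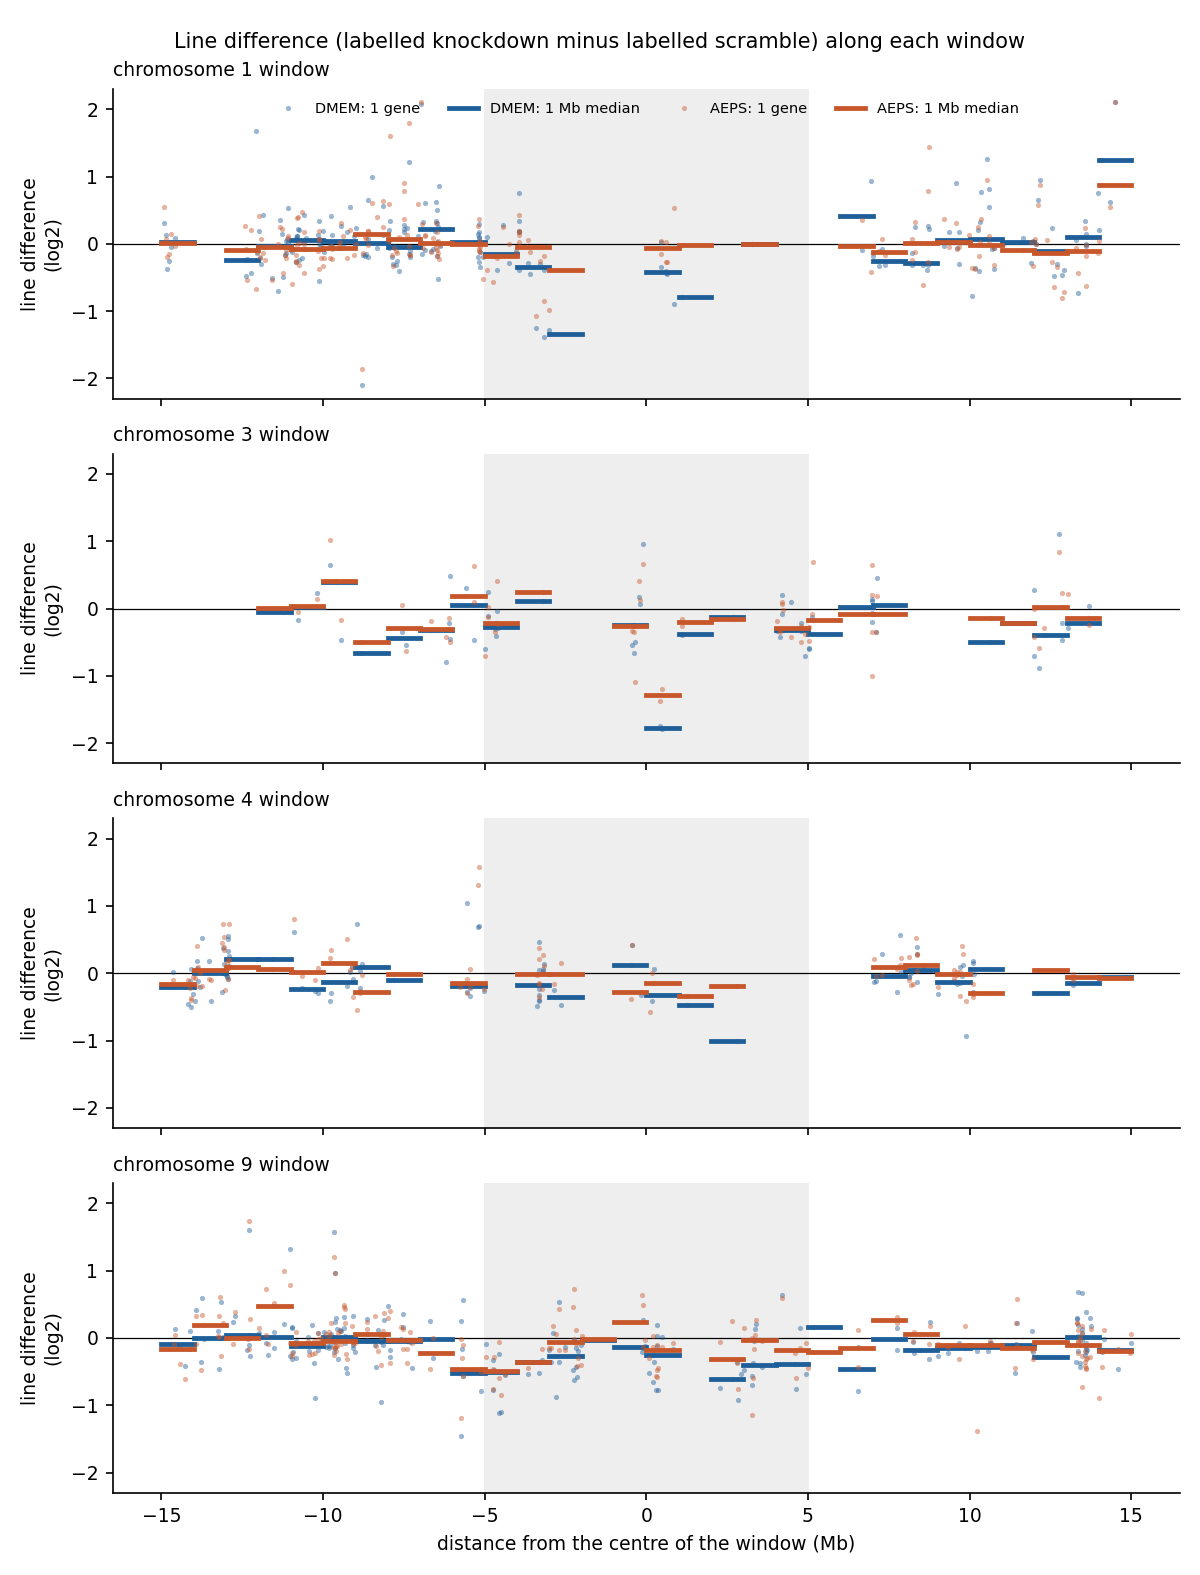
Line difference of each gene above background on all 4 arrays (points) and the median of each 1 Mb (bars), on the log2 scale, against the distance in Mb from the centre of each window, in DMEM (blue) and under AEPS (orange). The grey band is the window; 3 genes beyond 2.1 log2 units are drawn at that value, and the bars of the chromosome 3 and 9 windows lie mostly below 0.

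Of the 303 genes, 142 were above background on all 4 arrays, 47 on some and 114 on none. Over the 20336 genes of the whole array above background on all 4, the line difference had a median of -0.02 in DMEM and 0.01 under AEPS, and 52.9% lay below 0 in DMEM and 49.0% under AEPS. In the chromosome 9 window the median was -0.36 in DMEM and -0.15 under AEPS, and 53 of 63 genes were below 0 in DMEM and 48 of 63 under AEPS. The chromosome 3 window had medians of -0.31 and -0.23, with 24 and 23 of 31 genes below 0. For the chromosome 1 window the medians were -0.35 and -0.12, with 20 and 17 of 27 genes below 0, and for the chromosome 4 window -0.25 and -0.14, with 13 of 21 genes below 0 in each medium. The shift was thus small for a typical gene: the quartiles in DMEM were -0.54 and -0.11 in the chromosome 9 window and -0.41 and 0.06 in the chromosome 4 window.

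Below 0 in both media were 44 of 63 genes of the chromosome 9 window, 21 of 31 of the chromosome 3 window, 16 of 27 of the chromosome 1 window and 10 of 21 of the chromosome 4 window, where 32.5% of all genes were. Above 0 in both media were 6, 5, 6 and 5 genes in the same order, where 30.6% of all genes were. The DMEM and AEPS differences come from separate arrays, and across genes they had a Pearson r of 0.50 in the chromosome 9 window (n = 63), 0.85 in the chromosome 3 window (n = 31), 0.64 in the chromosome 1 window (n = 27) and 0.41 in the chromosome 4 window (n = 21), against 0.58 over all 20336 genes. By rank (Spearman rho) the values were 0.42, 0.75, 0.59 and 0.36 in the same order, against 0.40 over all genes. Genes are not independent replicates, and the shared cultures, slide and probes enter each of these values.

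**Figure D2:**
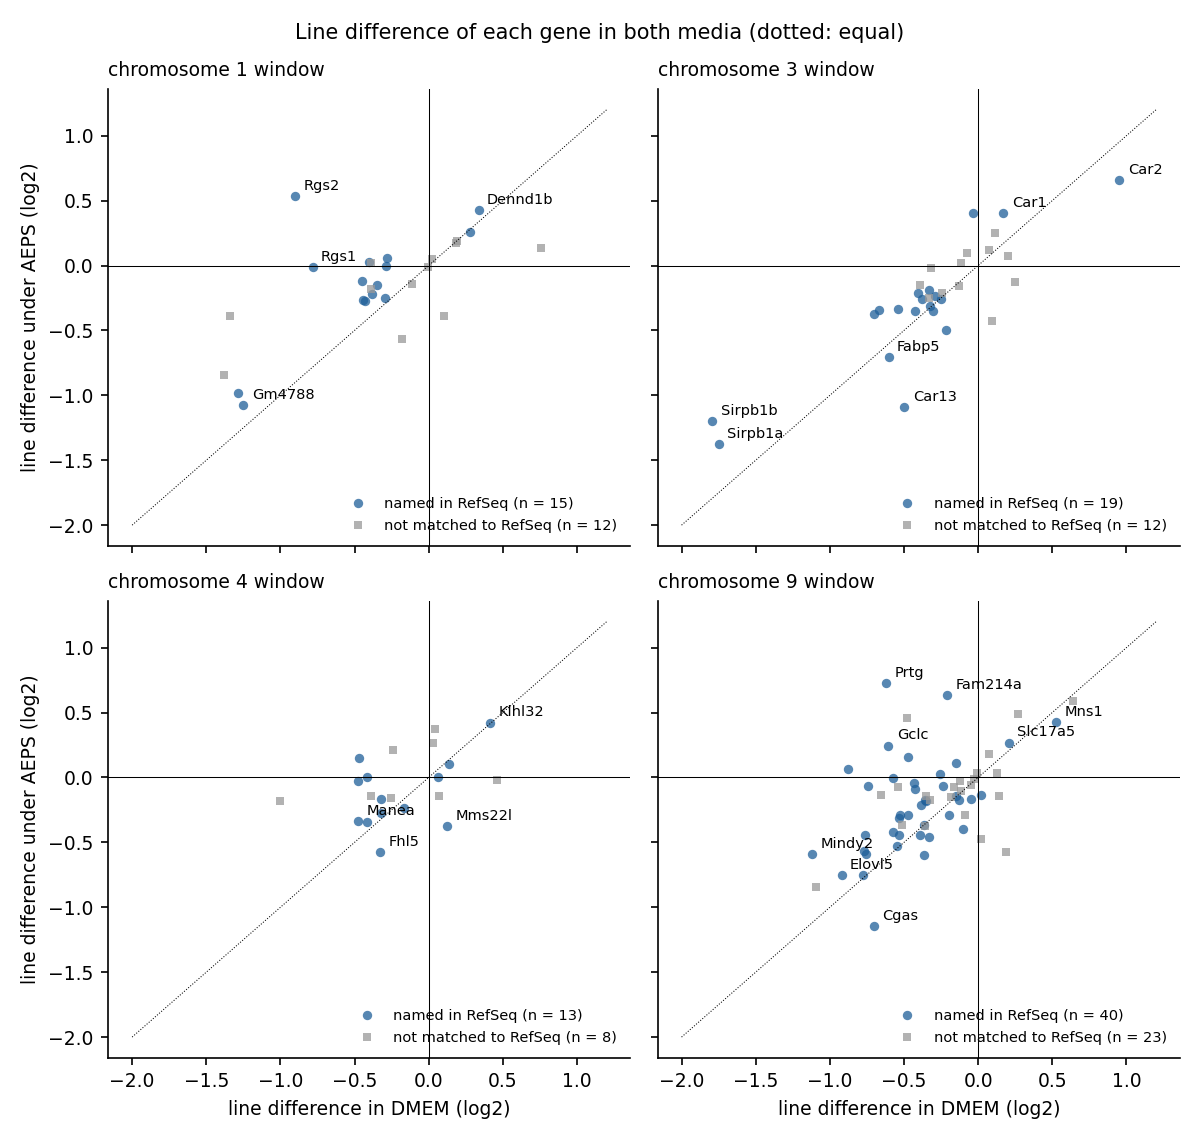
Line difference of each gene above background on all 4 arrays, in DMEM (horizontal) and under AEPS (vertical), on the log2 scale, for genes named in RefSeq (circles) and probes not matched to RefSeq (squares). Points below and to the left of the axes are lower on the arrays labelled knockdown in both media, among them Sirpb1a, Sirpb1b and Cgas, while Car2 is higher in both and Rgs2 and Prtg change sign.

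By the median, the genes named in RefSeq lay lower than the other probes in all 4 windows. In the chromosome 9 window 40 genes named in RefSeq had medians of -0.43 in DMEM and -0.20 under AEPS. The 23 probes not matched to RefSeq, mostly transcripts of unknown identity, had -0.12 and -0.10. The same split gave -0.38 and -0.33 against -0.10 and -0.07 in the chromosome 3 window, -0.40 and -0.12 against -0.06 and -0.08 in the chromosome 1 window, and -0.32 and -0.16 against -0.10 and -0.08 in the chromosome 4 window. Over the whole array the genes named in RefSeq had -0.05 and 0.00 and the others 0.04 and 0.01. Single probes not matched to RefSeq were low as well. ENSMUST00000098589, singled out after its values were seen, had -1.09 in DMEM and -0.84 under AEPS. Its mean of both media, -0.97, was the lowest of the chromosome 9 window. Signal moved with the line difference over the whole array: genes with a mean level above 0 had a median of -0.07 in DMEM and those below 0 had 0.06. In the chromosome 1 window the 15 genes above level 0 had -0.38 in DMEM but -0.01 under AEPS, the same as the -0.01 of all such genes. In the chromosome 4 window the 9 genes below level 0 had 0.03 and 0.10. The chromosome 9 window had -0.43 and -0.29 above level 0 and -0.20 and -0.14 below it. Not all windows ran this way: the chromosome 3 window had -0.30 and -0.22 above level 0 and -0.32 and -0.25 below it, and the chromosome 1 window under AEPS had -0.16 below it. The part of signal in these medians was not tested.

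**Figure D3:**
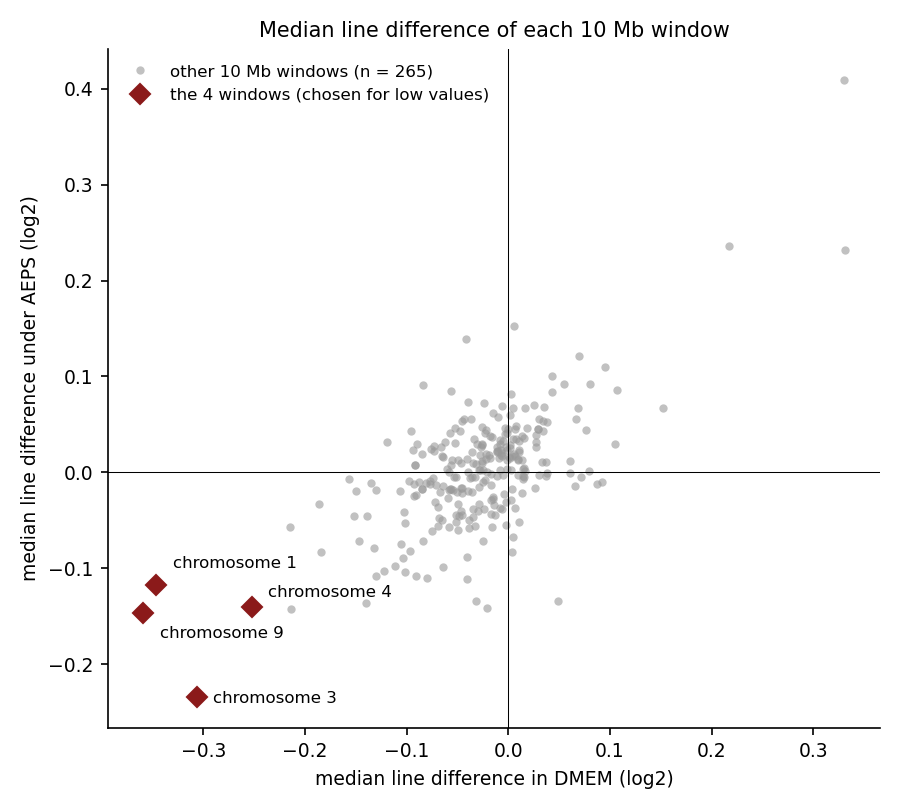
Median line difference in DMEM (horizontal) and under AEPS (vertical), on the log2 scale, for every 10 Mb window of the genome with at least 10 genes above background on all 4 arrays. The 4 windows (diamonds) were chosen for low values and lie below -0.25 in DMEM, where the other 265 windows (grey) reach no lower than -0.22.

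Among 269 such windows of the genome, ordered by the mean of both medians, the chromosome 3, 9, 1 and 4 windows were the lowest, in that order, which is what they were chosen for. By the AEPS median alone they ranked 1, 2, 9 and 5. The other 265 windows had medians of -0.22 to 0.33 in DMEM and -0.14 to 0.41 under AEPS. The next lowest, on chromosome 3 from 20 to 30 Mb, had -0.21 and -0.14, and chromosome 3 from 0 to 10 Mb had -0.22 and -0.06, so the chromosome 3 window has no sharp border.

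The borders are shown by genes named in RefSeq just inside and just outside. Inside the lower border of the chromosome 3 window lay Fabp5 (-0.60 in DMEM and -0.71 under AEPS), and outside it Tpd52 (-0.45 and -0.50) and Mrps28 (-0.79 and -0.42). Beyond its upper border Hltf (-0.58 and -0.27) and Gyg (-0.61 and -0.49) were low as well, beside Hps3 inside (-0.70 and -0.38). On chromosome 9, Bnip2 (-0.52 and -0.46) and Gtf2a2 (-0.79 and -0.51) lay just below the window, Ccnb2 (-0.77 and -0.75) just inside, Senp6 (-0.39 and -0.44) at the upper end and Impg1 (0.16 and -0.21) beyond it. On chromosome 1, Ptprc, the gene of CD45, lay just below the window (-0.20 and -0.52), and no gene above background lay within 1 Mb above it: Pla2g4a, the first, had -0.09 and 0.36. On chromosome 4, Ggh (-0.27 and -0.23) and Atp6v0d2, a proton pump subunit of osteoclasts (0.69 and 1.31), lay just below the window, and Map3k7 (-0.11 and -0.05) was the first of these above it, after a probe without a RefSeq name, 2610008G14Rik (-0.13 and 0.21).

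The 10 Mb on either side of the chromosome 1 window had medians of 0.03 and -0.02 below it and -0.01 and -0.04 above it, in DMEM and under AEPS, and those of the chromosome 4 window -0.01 and 0.03 below and -0.06 and -0.02 above. On chromosome 9 they were -0.04 and -0.02 below and -0.12 and -0.10 above. The rest of each chromosome had DMEM medians of -0.05 to 0.03. Within the chromosome 9 window the 1 Mb with the lowest median under AEPS ran from 70 to 71 Mb, where all 8 genes were below 0 in both media (medians -0.51 and -0.49), and the lowest in DMEM from 77 to 78 Mb, where all 5 genes were below 0 in DMEM and 4 under AEPS (-0.61 and -0.31). All 5 genes from 71 to 72 Mb were below 0 in both media (-0.36 and -0.36), while the 4 genes from 74 to 75 Mb had -0.13 and 0.23. Genes above background were absent from parts of the chromosome 1 window, where 19 of the 27 lay from 140 to 143 Mb.

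**Figure D4:**
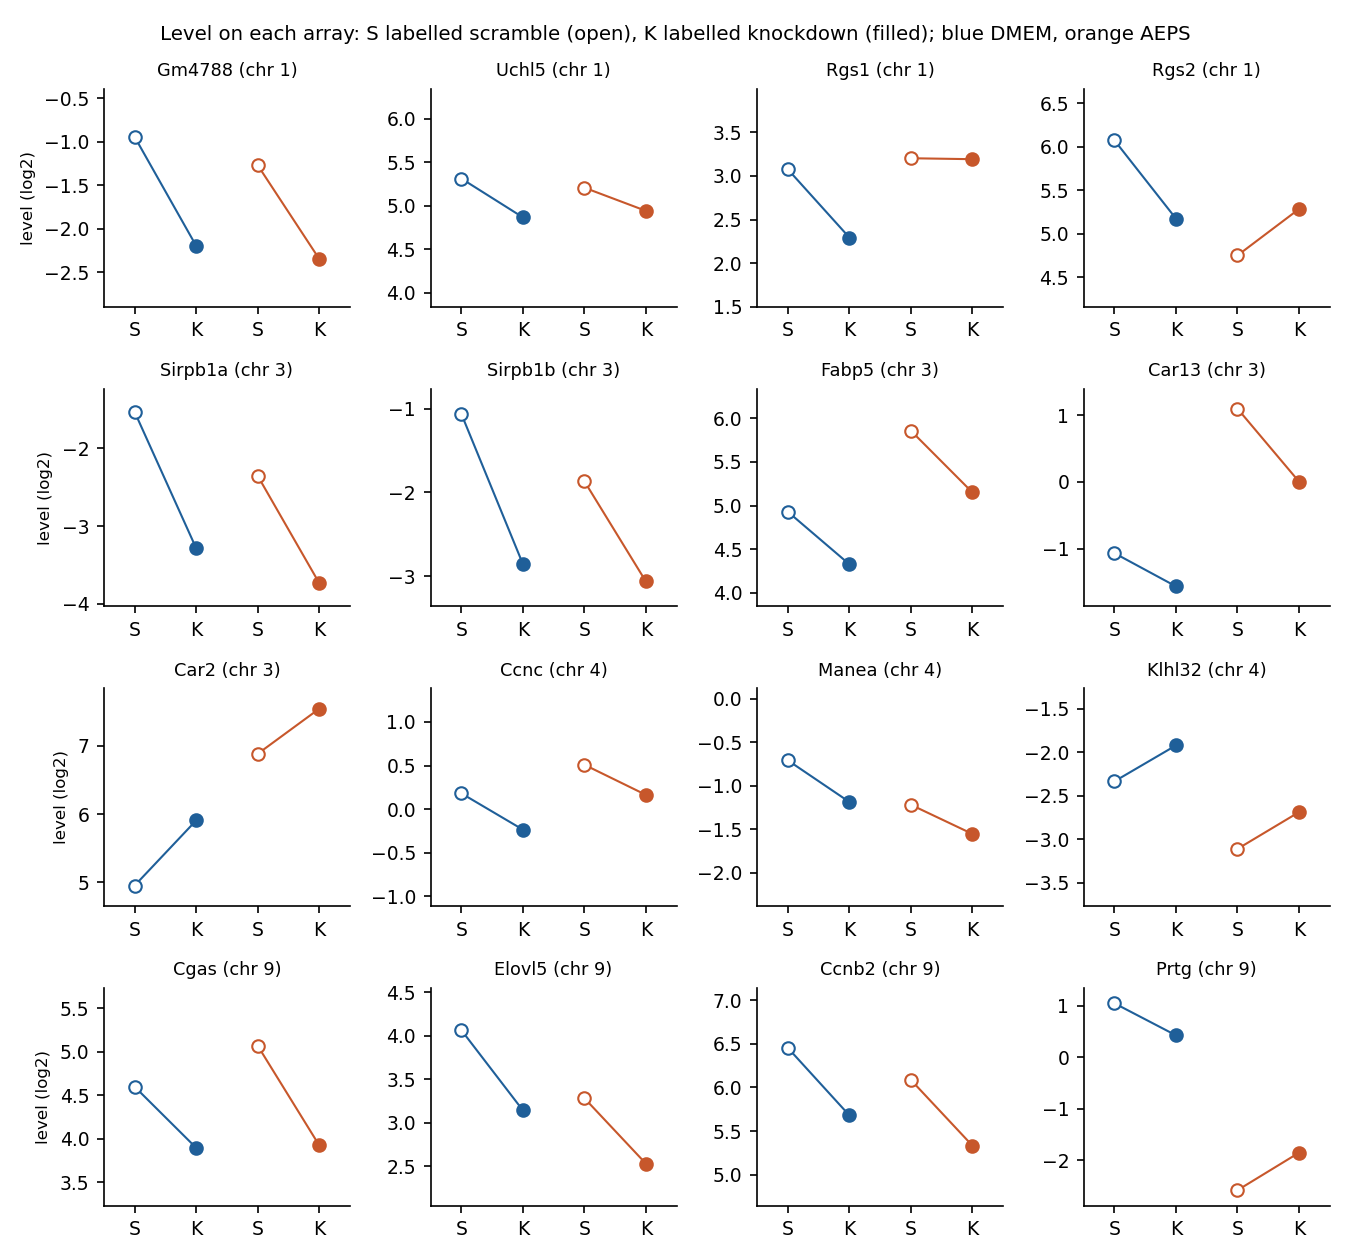
Level of 16 genes (log2 of the processed intensity minus the 75th percentile of the array) on the 4 arrays, labelled scramble (S, open) or knockdown (K, filled), in DMEM (blue) or under AEPS (orange); each panel has its own vertical range. Uchl5, Sirpb1a and Cgas are lower on K in both media, Car2 and Klhl32 are higher, and Rgs2 and Prtg are lower in DMEM and higher under AEPS.

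In the chromosome 1 window Gm4788, which was singled out after its values were seen, read -0.95 on the array labelled scramble and -2.20 on the array labelled knockdown in DMEM, and -1.27 and -2.35 under AEPS. Its line differences were -1.25 and -1.08, and both arrays labelled scramble lay above both arrays labelled knockdown.

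The RGS genes did not move alike. Rgs2, a brake on Gq signals, read 6.07 and 5.17 in DMEM and 4.75 and 5.28 under AEPS, so its line difference was -0.90 in DMEM and 0.53 under AEPS, and both of its probes changed sign between media. Rgs1, which damps chemokine receptor signals, read 3.08 and 2.29 in DMEM and 3.20 and 3.19 under AEPS, a difference of -0.78 that was -0.01 under AEPS. Of 5 listed RGS genes these 2 were above background on all 4 arrays, Rgs21 on 2 arrays, and Rgs13 and Rgs18 on none.

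Nuclear and mitotic genes of the chromosome 1 window lay close together in DMEM and spread under AEPS. Uchl5, a deubiquitinase of the proteasome, read 5.31 and 4.87 in DMEM and 5.21 and 4.94 under AEPS, differences of -0.44 and -0.27. Nek7, a mitotic kinase that also licenses the NLRP3 inflammasome, read 3.41 and 3.03, then 2.74 and 2.52, differences of -0.38 and -0.22. All 4 measured nuclear and RNA genes (Zbtb41, Cdc73, Ro60 and Uchl5) were below 0 in DMEM, with a median of -0.37, and 2 of 4 under AEPS, with -0.06. Aspm, which organises spindle poles, had -0.45 and -0.12, Cdc73 of the PAF1 complex -0.35 and -0.15, the Ro60 RNA-binding gene -0.40 and 0.02, and the mitochondrial glutaredoxin gene Glrx2 -0.43 and -0.28. Among genes with an official-style symbol the 3 highest by the mean of both media were Dennd1b, a regulator of vesicle traffic (0.34 and 0.43), Rgs2 and Zbtb41 (-0.28 and 0.06), while other members lay above the last pair, the highest being AK087124 (0.76 and 0.13). Among probes without a RefSeq name, F830014O18Rik (-1.34 and -0.39) and A_55_P2041693 (-1.38 and -0.84) were also at least 2-fold lower in DMEM and were singled out after their values were seen.

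In the chromosome 3 window the SIRP-beta receptor genes had the lowest line differences of all named members. Sirpb1a read -1.54 on the array labelled scramble and -3.28 on the array labelled knockdown in DMEM, and -2.36 and -3.73 under AEPS, which is 3.36-fold and 2.59-fold lower. Sirpb1b read -1.06 and -2.85, then -1.86 and -3.06, 3.46-fold and 2.29-fold lower. These are dim probes, and with the normexp background correction the log2 differences of -1.75 and -1.38 for Sirpb1a became -0.96 and -0.59 and those of -1.79 and -1.20 for Sirpb1b became -1.08 and -0.60. The genes are close copies, so the first 30 bases of each 60-base probe are given, from mm9 chr3:15410412-15410471 and chr3:15495798-15495857 on the minus strand, with no base in capitals.
Sirpb1a probe: gaacaagcagaagtcattgaaacccatact
Sirpb1b probe: ctctgcatatgtattgctatcccagaactt
The longest run of bases that the whole probes share is 6, so the probes differ in sequence. Neither was compared with the transcript of the other gene, so each could bind RNA of the other gene or of a further copy. Sirpb1c and Gm9733, neighbours of the same family region, were above background on the arrays labelled scramble only, with bounds of -1.50 and -1.61 in DMEM (at least 2-fold lower) and -0.59 and -0.81 under AEPS. A bound sets the bright array against the reading on the dim one or the lowest signal above background there, whichever is higher.

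Fatty acid binding protein genes lay at the lower end of the chromosome 3 window. Fabp5, abundant in macrophages, read 4.93 and 4.33 in DMEM and 5.86 and 5.15 under AEPS, 1.52-fold and 1.63-fold lower, and its probe shares a run of 20 bases or more with a probe of 1 other name. Fabp4, the adipocyte and macrophage form, was not above background in DMEM (-6.55 and -6.61) and read -0.71 and -1.86 under AEPS, a line difference of -1.15 there. Fabp9 was above background on 1 array and Pmp2 and Fabp12 on none.

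The carbonic anhydrases, which lie side by side, differed in both directions. Car2, the main cytosolic form and a marker of osteoclasts, read 4.96 and 5.91 in DMEM and 6.88 and 7.54 under AEPS, so it was higher on the array labelled knockdown by 0.95 and 0.66. Car13, its neighbour, read -1.07 and -1.56 in DMEM and 1.10 and 0.00 under AEPS, differences of -0.50 and -1.09. Car1 had 0.17 and 0.40, and Car3 was above background on no array. Of the 3 measured, 1 was below 0 in each medium.

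Most other named genes of the chromosome 3 window differed by less and in the same direction. Hps3, needed for lysosome-related organelles, read 0.69 and -0.02 in DMEM and 0.29 and -0.09 under AEPS, differences of -0.70 and -0.38. The cell cycle and centrosome pair E2f5 (-0.67 and -0.34) and Lrrcc1 (-0.54 and -0.33), the mitochondrial pair Armc1 (-0.33 and -0.19) and Mtfr1 (-0.43 and -0.35), and Impa1, which makes free inositol (-0.31 and -0.35), and Pde7a, a cyclic AMP phosphodiesterase (-0.32 and -0.32), were below 0 in both media. Of the ubiquitin and trafficking genes, Zfand1 (-0.40 and -0.21) and the sorting nexin Snx16 (-0.29 and -0.23) were too, and the ESCRT gene Chmp4c had -0.04 and 0.41. For Armc1, all 3 probes lay below 0 in both media, from -0.33 to -0.53 in DMEM.

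In the chromosome 4 window no gene reached 2-fold lower in either medium. The lowest in DMEM was A_55_P1982449, a dim probe without a RefSeq name that was singled out after its values were seen, with -0.9998 in DMEM and -0.18 under AEPS. The lowest genes with an official-style symbol differed by less in DMEM. Manea, a mannosidase of the Golgi, read -0.71 and -1.19 in DMEM and -1.22 and -1.55 under AEPS, differences of -0.48 and -0.33. Ccnc, the cyclin of the Mediator kinase module, read 0.18 and -0.24, then 0.51 and 0.16, differences of -0.42 and -0.35, and its other probe gave -0.28 and -0.03. Ndufaf4, an assembly factor of respiratory complex I, read 4.01 and 3.69, then 4.44 and 4.16, differences of -0.32 and -0.27. Fhl5, a LIM domain gene read by a dim probe, had -0.33 and -0.58, and with the normexp background 0.07 and -0.25, so its DMEM direction depends on the background correction.

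The 3 ubiquitin and UFM1 genes of this window were below 0 in DMEM, and 1 of them, Usp45 (-0.17 and -0.24), was so under AEPS. Ufl1, the UFM1 ligase, read 2.22 and 1.80 in DMEM and 1.89 and 1.89 under AEPS. Fbxl4, an F-box gene that restrains mitophagy, had -0.47 and 0.15, and its dimmer probe gave -0.49 and -0.12. Highest by the mean of both media was Klhl32, read by a dim probe, with -2.33 and -1.92 in DMEM and -3.11 and -2.69 under AEPS, differences of 0.41 and 0.42. Coq3, of ubiquinone synthesis (0.13 and 0.10), and Pnisr, a gene of nuclear speckles (0.06 and 0.01), lay near 0. Mms22l, a gene of replication fork repair, had 0.13 and -0.37, and its probe shares a run of at least 20 bases with probes of 52 other names, so its high level may not be its own.

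In the chromosome 9 window Cgas read lower in both media. It read 4.60 on the array labelled scramble and 3.90 on the array labelled knockdown in DMEM, and 5.07 and 3.93 under AEPS, 1.63-fold and 2.21-fold lower. Its 3 probes gave -0.64 to -0.70 in DMEM and -1.01 to -1.21 under AEPS. Both arrays labelled scramble lay above both labelled knockdown, and the line difference was larger under AEPS.

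Elovl5, an elongase of polyunsaturated fatty acids, read 4.07 and 3.14 in DMEM and 3.28 and 2.53 under AEPS, 1.89-fold and 1.68-fold lower. Gclc, the catalytic subunit that limits glutathione synthesis and a close neighbour of Elovl5, read 4.89 and 4.29 in DMEM and 3.32 and 3.56 under AEPS, so its difference of -0.60 turned to 0.25. Gsta4, the listed glutathione transferase gene, was above background on no array, and nor were its neighbours Gsta1 and Gsta2.

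Ccnb2 and Adam10, near the lower border, differed by similar amounts in both media. Ccnb2, cyclin B2 of mitosis, read 6.45 and 5.68 in DMEM and 6.09 and 5.33 under AEPS, 1.71-fold and 1.69-fold lower. Adam10, the sheddase that cleaves Notch and many surface proteins, read 4.94 and 4.39, then 4.42 and 3.89, differences of -0.54 and -0.53. Mindy2, a deubiquitinase, read 1.69 and 0.57, then 0.40 and -0.19, 2.17-fold and 1.51-fold lower, and its second probe gave -1.14 and -0.53, so its difference was smaller under AEPS. Tmem30a, the partner of lipid flippases at the upper end of the window, read 3.44 and 2.68, then 3.46 and 2.87, differences of -0.75 and -0.59.

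Of 8 listed transcription and chromatin genes of the chromosome 9 window, 7 were above background on all 4 arrays, and these had a median of -0.47 in DMEM and -0.29 under AEPS. All 7 were below 0 in DMEM and 6 under AEPS. Leo1, of the PAF1 complex, had -0.77 and -0.56, Polr2m, a subunit tied to RNA polymerase II, -0.54 and -0.44, the SMAD pathway ligase Rnf111 -0.47 and -0.29, and the E-protein gene Tcf12 -0.36 and -0.36, while Zfp280d had -0.88 and 0.06. The myosins Myo1e (-0.33 and -0.46) and Myo5a (-0.53 and -0.29) and the actin capping gene Tmod3 (-0.77 and -0.44) were below 0 in both media.

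The 4 measured ubiquitin and signalling genes had medians of -0.37 in DMEM and -0.25 under AEPS. The 4 translation and mitochondrial genes had -0.23 and -0.31. Mapk6, an atypical MAP kinase, read 4.72 and 4.37 in DMEM and 4.79 and 4.60 under AEPS, and the SUMO protease Senp6 and the F-box gene Fbxo9 had -0.39 and -0.44, and -0.54 and -0.31. All 4 listed translation and mitochondrial genes were below 0 in both media. Among them were the tRNA modifier Mto1 (-0.37 and -0.59) and Eef1a1, the elongation factor (-0.05 and -0.16). The Eef1a1 probe shares a run with probes of 4 other names. Highest among genes with an official-style symbol were Mns1 of cilia and flagella (0.53 and 0.43), Fam214a (-0.21 and 0.64) and Slc17a5, the lysosomal sialic acid carrier (0.21 and 0.27 on a probe that shares a run with 23 other names, and -0.45 and -0.02 on its dimmer probe).

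Probes that may read other RNA were counted apart. Of the 142 members above background on all 4 arrays, 14 had a probe with a run of 20 bases or more in common with a probe of another name, among them unnamed probes that match Rpl36, Rpl17 and Cox6c. In the chromosome 9 window the 8 such probes had a median line difference of -0.05 in DMEM and -0.04 under AEPS, and the 55 others -0.38 and -0.17. Without them the chromosome 4 window had -0.32 and -0.14 over 18 genes and the chromosome 1 window -0.37 and -0.13 over 26.

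Few members differed 2-fold. In DMEM 1.51% of 23064 genes of the array were at least 2-fold lower on the array labelled knockdown and 2.36% higher, bounds included, and of the members 4 of 30 were lower in the chromosome 1 window, 5 of 38 in the chromosome 3 window (3 of them bounds), 0 of 25 in the chromosome 4 window and 2 of 83 in the chromosome 9 window. One member, Cgnl1 of the chromosome 9 window, was higher by a bound of 2.17. Under AEPS 2.69% of 22791 genes were lower and 1.85% higher, and of the members 2 of 31, 4 of 42, 0 of 24 and 1 of 76 were lower, and 1, 0, 1 and 0 were higher, both by bounds, in the chromosome 4 window an unnamed transcript probe (ENSMUST00000108207, at least 3.47). Without the genes measured at least 2-fold apart in either medium the DMEM medians were -0.29, -0.27, -0.25 and -0.35 for the chromosome 1, 3, 4 and 9 windows. Under AEPS they were -0.01, -0.21, -0.14 and -0.14. In the chromosome 1 window 4 genes were left out, Gm4788, F830014O18Rik and A_55_P2041693 among them. All 4 lay below its AEPS median, so leaving them out could not lower it. In the chromosome 4 window no gene was left out.

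The effect of AEPS was not used to choose the windows and could be tested, with limma on line and treatment over 22338 genes above background on 2 or more arrays. The spread of this fit rests on 1 residual degree of freedom plus 2.82 from the prior, so genes that responded unequally in the lines were harder to call. Over the array 7.4% of genes rose and 7.29% fell at a Benjamini-Hochberg adjusted p of 0.05. In the chromosome 9 window 2 of 75 rose and 15 fell, in the chromosome 3 window 6 of 39 rose and 2 fell, in the chromosome 1 window 1 of 29 rose and 2 fell, and in the chromosome 4 window 1 of 23 rose and 3 fell. Members above background in 1 medium only had to differ to be tested: these were 3 of the 8 calls of the chromosome 3 window and 2 of the 17 of the chromosome 9 window. Among members above background on all 4 arrays, this fit called 4 of 31 higher in the chromosome 3 window, where both falls were of members above background on 2 arrays, and 1 of 63 higher and 14 lower in the chromosome 9 window.

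**Figure D5:**
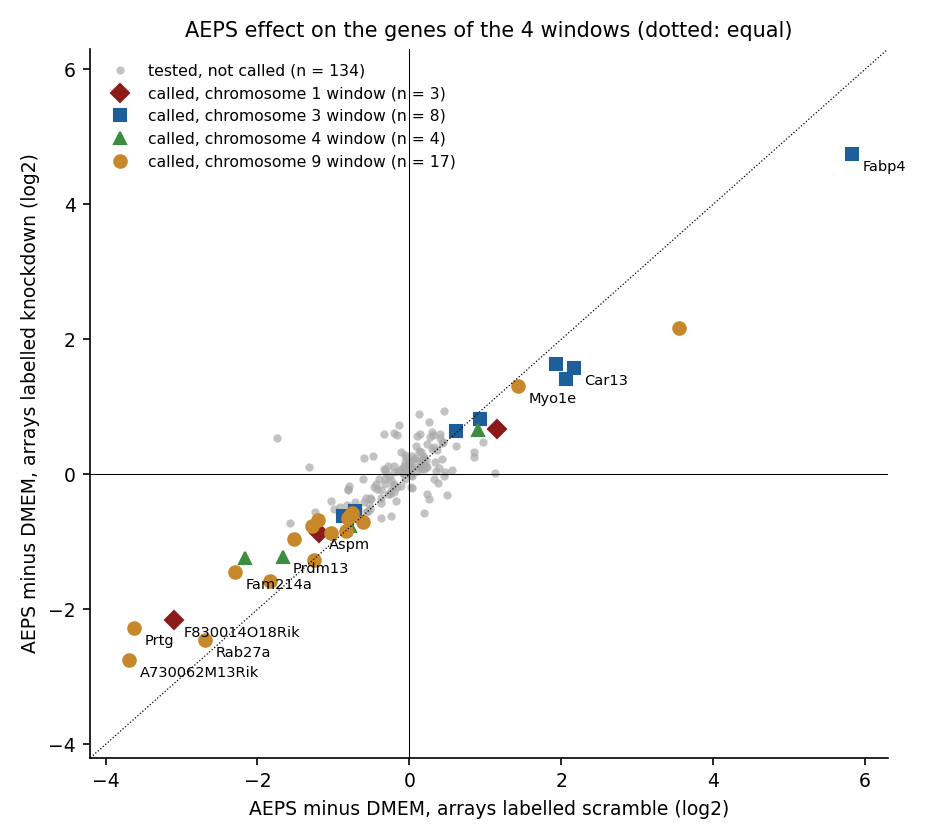
Level under AEPS minus level in DMEM, on the log2 scale, on the arrays labelled scramble (horizontal) and knockdown (vertical), for the 166 members tested; coloured symbols passed limma at an adjusted p of 0.05 and grey ones did not. Fabp4, not above background in DMEM, lies highest in both lines, and A730062M13Rik, Prtg and F830014O18Rik have the largest called falls.

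Of the tested genes of the chromosome 3 window, 2 of 3 carbonic anhydrase genes and Fabp5 rose under AEPS, where 7.4% of all genes did. Car13 rose by 1.87 ± 0.19 (SE, log2; limma adjusted p = 0.0174), Car2 by 1.78 ± 0.14 (limma adjusted p = 0.0118) and Fabp5 by 0.88 ± 0.12 (limma adjusted p = 0.0262). Each was higher under AEPS in both lines, Car2 and Car13 although their line differences point opposite ways. Fabp4 was tested only because it was above background under AEPS, so only a bound can be given. It was at least 13.5-fold higher there, with a mean level of -1.29 against -6.58 in DMEM. Likewise Cp, of ceruloplasmin, the copper-carrying ferroxidase, was at least 3.18-fold higher under AEPS, with mean levels of -3.34 and -5.08. Such a bound sets the mean of the bright arrays against a mean over the dim ones. On each dim array the higher of its reading and its lowest signal above background was used. The limma calls of members above background in 1 medium only rest on fitted changes that use values not above background. The bounds themselves were not tested, so no p-value is given with them.

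In the chromosome 9 window Myo1e, a myosin of phagocytic cups, rose by 1.37 ± 0.12 (limma adjusted p = 0.0137). Prtg, of the protogenin receptor, fell by 2.95 ± 0.36 (limma adjusted p = 0.0233), from 1.05 to -2.58 on the arrays labelled scramble and from 0.43 to -1.85 on those labelled knockdown. Rab27a, a GTPase of secretory granules, was above background in DMEM only and at least 4.65-fold lower under AEPS, with mean levels of -2.70 and -5.27. Elovl5 fell by 0.70 ± 0.12 (limma adjusted p = 0.0421). Cgas, with 0.25 ± 0.16 (limma adjusted p = 0.338), did not pass the test, and Gclc fell short of it at -1.15 ± 0.25 (limma adjusted p = 0.0604) and passed with quantile normalization and with normexp. F830014O18Rik of the chromosome 1 window fell by 2.63 ± 0.27 (limma adjusted p = 0.0174), and A730062M13Rik, next to Prtg, fell by 3.22 ± 0.27 (limma adjusted p = 0.0131).

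Fewer genes were tested in the chromosome 1 and 4 windows, where 3 of 29 and 4 of 23 passed. Aspm fell by 1.03 ± 0.14 (limma adjusted p = 0.0279) in the chromosome 1 window. In the chromosome 4 window Prdm13, a transcription regulator of neurons, fell by 1.44 ± 0.16 (limma adjusted p = 0.0204) and Klhl32 fell by 0.77 ± 0.11 (limma adjusted p = 0.0313). Fhl5 rose by 0.78 ± 0.13 (limma adjusted p = 0.0387), a call lost with the normexp background (0.41). Dnajc5b of the chromosome 3 window was above background in DMEM only and at least 1.26-fold lower under AEPS. Its call was lost with the normexp background too, where its fitted change became -0.0034. Sirpb1a (-0.63 ± 0.15; limma adjusted p = 0.0705) and Sirpb1b (-0.51 ± 0.19; limma adjusted p = 0.161) read lower under AEPS in both lines without passing.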

How the data were processed

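The deposited scanner files give a linear intensity per spot, made with Agilent Feature Extraction 10.7.1.1 per the file headers, background-subtracted and detrended within the array and not scaled between arrays. The authors also deposited a table of log2 values; how it was made is not given in the sources read for this work, and it served as an alternative. The 4 arrays share 1 slide and 1 scan.

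From the scanner intensities, log2 of the processed signal was reduced by the 75th percentile of each array over non-control spots; outlier spots (164 to 231 an array) were dropped and the spots of a probe averaged. A probe counts as above background where the files mark it well above background. Names were updated through a RefSeq gene table, and probe positions are those of the files (mm9). Line differences compare 1 array with 1 array by size. The AEPS effect was fitted with limma 3.58.1 in R 4.3.3 (additive line and treatment, lmFit and eBayes, Benjamini-Hochberg over all genes tested), after a check on simulated data; its p-values reflect no more than the spread among these 4 arrays, which may be technical.

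The members, gene lists, motifs and tests were chosen with earlier results of these data known. Named genes per window were, among symbols above background on all 4 arrays, the 5 smallest and 3 largest means of both line differences, the largest bounds, the 2 largest AEPS calls each way, and measured list members. Alternatives tried were the background correction (normexp, offset 50), quantile and median scaling, the value table, other filters on dim probes, every probe, window edges moved 2 Mb inwards, and limma with other gene sets or an intensity trend; 2 more, on signal level and on shared probe sequence, were added after seeing the data. Some genes that this rule or the marker lists name are not reported here.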

Additional observations from a re-analysis of the deposited data

Results flagged for a closer look

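For 4 named genes the line difference had opposite signs in the 2 media, each at least 0.2 on the log2 scale. In all 4 the array labelled knockdown read lower in DMEM and higher under AEPS. From DMEM to AEPS the line difference moved by 1.43 for Rgs2, 1.35 for Prtg, 0.85 for Gclc and 0.84 for Fam214a, a gene of little known function. With 1 array a group, these differences between media were not tested. Of the 142 members above background on all 4 arrays, 6 met this description, all in the same direction. The windows were chosen for low line differences and were the 4 lowest by the DMEM median. Their choice thus bears on this direction, and nothing rests on it. Over all 20336 genes, 4145 were below 0 in DMEM only and 3358 under AEPS only, at any size. The share of at least 0.2 both ways was not counted there. Over all genes the line difference moved upwards from DMEM to AEPS by a median of 0.04.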

How the results depend on the processing

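No paired analysis was possible because each group has 1 array and so no replicate numbers to pair; the AEPS fit has the line as a term and so compares media within each line. The median line differences of all 4 windows stayed below 0 with the normexp background, quantile normalization, median scaling, every probe, named genes only, window edges moved inwards, genes 2-fold apart left out (-0.01 for chromosome 1 under AEPS) and both filters added after seeing the data. Under the labels of the value table all reversed, because its line labels are opposite to those of the scanner files. Which source is right is not known. The medians were then 0.32, 0.24, 0.24 and 0.33 in DMEM for the chromosome 1, 3, 4 and 9 windows. Under AEPS they were 0.082, 0.20, 0.078 and 0.15. With no filter on dim probes the DMEM medians were -0.045 (chromosome 3), 0.12 (chromosome 4, reversed) and -0.12 (chromosome 9) and those under AEPS 0.023 (chromosome 1, reversed), 0.0885 (chromosome 4, reversed) and -0.044 (chromosome 9), where all genes had 0.10 and 0.07. Median scaling gave -0.39 in DMEM for chromosome 3 and moved the median of all genes by -0.11.

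The normexp background left 2 genes 2-fold lower in DMEM in the chromosome 1 window, 1 in the chromosome 3 window and 1 in the chromosome 9 window, where 0 were higher; under AEPS it left 1 and 1 lower in the chromosome 1 and 3 windows and 0 higher in the chromosome 1 window. Quantile normalization gave 1 gene higher in the chromosome 3 window and 1 lower in the chromosome 4 window in DMEM, and median scaling 1 lower in the latter. For AEPS, limma called 3 genes of the chromosome 1 window higher with normexp, with genes above background on all 4 arrays and with an intensity trend, and 4, 5 and 4 lower; 4 and 4 lower in the chromosome 3 window in the last 2 settings; and 2 and 8 higher in the chromosome 4 and 9 windows with the trend. Over the array normexp called 2524 genes higher and 2576 lower, and the trend 3621 and 3073. Of 160 line differences of named genes, 155 kept their sign with quantile normalization and 147 with normexp. Dim probes limit the rest: 114 of the 303 genes were never above background.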
